A study of Rattus norvegicus with 9 samples.

Results

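The gene set described here comprises 33 rat genes of fatty acid oxidation and the peroxisome. Its members were found as the probe sets of the array whose single annotated gene symbol was one of the 33 names. This gave 36 probe sets for 32 genes, of 15866 probe sets and 10411 genes with a probe set of their own on the array. The missing member, Acaa1a, a peroxisomal thiolase, had no probe set with a single symbol and was not analysed here. After a filter on dim probe sets, 33 probe sets of 31 genes remained, of 9519 probe sets and 7147 genes in all. Where a gene had several probe sets, the one with the highest mean log2 signal stood for the gene.

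Total RNA from whole kidney samples of 9 rats (Rattus norvegicus) was measured on the Affymetrix RAE230A array, which reads each transcript through a set of short probes. Each animal had an array of its own, and the 4 case animals are numbered 3, 5, 7 and 8, while the 5 control animals are numbered 4, 9, 10, 11 and 12. The study's title concerns hypotension, and the labels give only group, tissue and animal number, so strain, age, sex and what was done to the case animals are not known here. The signals below are the deposited intensities, scaled so that every array has nearly the same trimmed mean, between 100.02 and 100.03.

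Fatty acid oxidation is the main source of ATP in the kidney's proximal tubule, a segment rich in mitochondria and peroxisomes. Long-chain fatty acids are bound to coenzyme A, passed into mitochondria by the carnitine shuttle and shortened there, with their electrons handed to the respiratory chain through the electron transfer flavoprotein. Peroxisomes take very long-chain and branched-chain fatty acids, and the nuclear receptor PPARα, encoded by Ppara, activates many genes of both compartments. The members were therefore read in 4 classes, namely the carnitine shuttle, mitochondrial β-oxidation, the peroxisome, and regulators, carriers and uncouplers.

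The comparison asked whether these genes differed between case and control kidneys and whether the classes differed alike. All 14 mitochondrial genes had a higher mean in case kidneys, by 0.07 to 0.53 on the log2 scale, with a median of 0.18 (1.13-fold). Under the alternatives tried, 13 or 14 of the 14 were higher, since Acads or Etfa, the genes with the smallest differences, turned in some of them. The carnitine shuttle genes were higher for 4 of 5 (median 0.16) and the peroxisomal genes for 6 of 8 (median 0.14). By tested probe set the shuttle had 4 higher and 2 lower and the peroxisomal class 6 higher and 3 lower. Cpt1a and Pex11a, counted as higher, each had another probe set that was lower. The 4 regulators, carriers and uncouplers above the filter all had a lower mean in case, with a median of -0.19, although the sign of each depended on which animals were included. Over all 7147 genes represented in the same way, 3443 (48.2%) were higher in case and the median was -0.01, so the median over all 31 members, 0.16 with 24 higher and 7 lower, lay above that of the array. The members were listed with earlier results of these animals in view, so these counts describe the kidneys and carry no test.

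No member passed the test across the array. Groups were compared with limma, a linear model fitted to log2(signal + 5.03) for every probe set, and an adjusted p under 0.05 after Benjamini-Hochberg adjustment counted as a call. Of the 9519 probe sets, 0 were called (0%), and so were 0 of the 33 member probe sets, of which Eci1 had the smallest adjusted p, 0.627. At an unadjusted p under 0.05, 5 of 33 member probe sets (15.2%) were higher in case, where 2.88% of all probe sets were, and 0 were lower, where 3.81% of all were. Case and control signals did not overlap at 2 member probe sets (6.06%), both higher in case, against 0.977% of all probe sets higher and 0.903% lower.

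**Figure D1:**
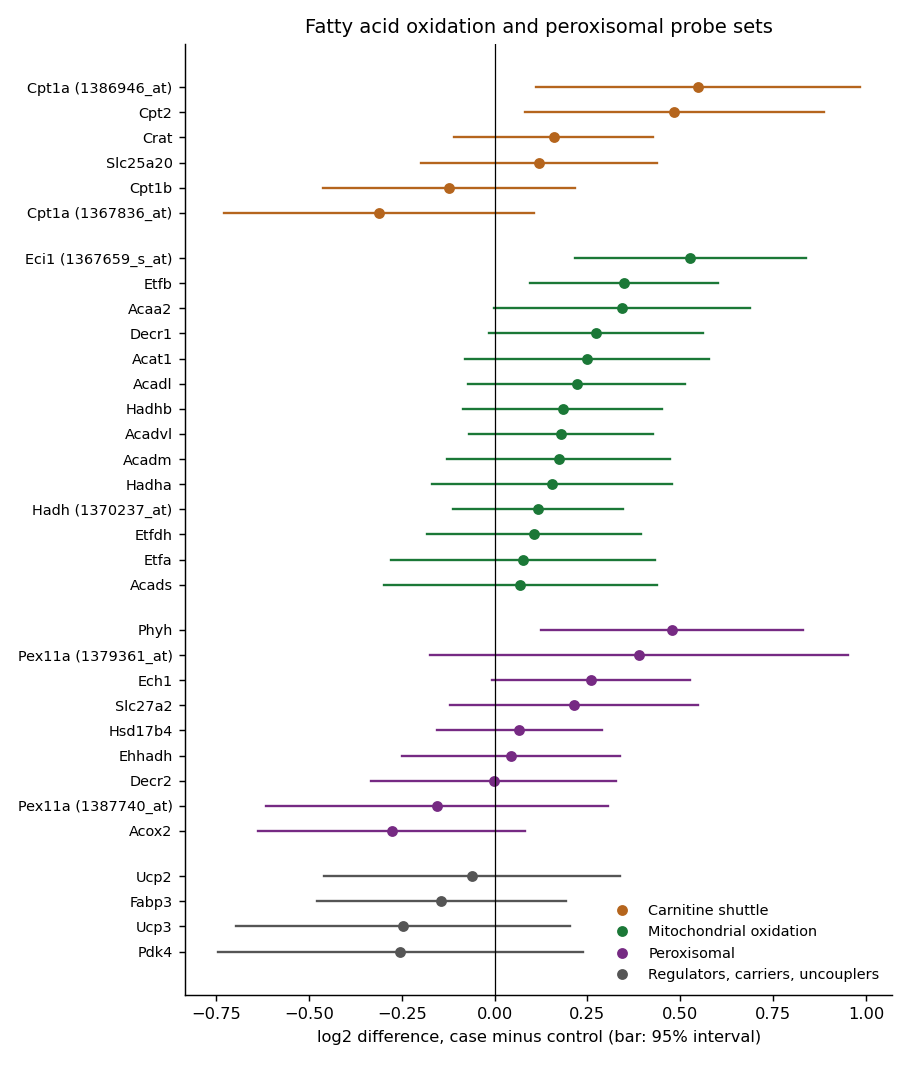
The horizontal axis gives the log2 difference, case minus control, of each of the 33 member probe sets, grouped by class on the vertical axis, with limma's 95% interval as a bar. All 14 mitochondrial points lie right of 0 and all 4 of the regulators, carriers and uncouplers lie left of it, and only Eci1, Etfb, Phyh, one Cpt1a probe set and Cpt2 have intervals that leave out 0.

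Arrays and animals differed in ways that the group labels do not describe. The arrays were grouped into 3 fluidics runs, inferred from their recorded hybridization times, where a gap of more than 10 minutes began a new run. Case animals 3, 5 and 7 and control animal 4 fell in run 1. Case animal 8 and control animals 9, 10 and 11 fell in run 2, and control animal 12 alone in run 3. The log2 ratio of the 3′ to the 5′ probe set of actin, which rises as RNA shortens, was 0.65, 0.61, 1.61 and 1.64 in case animals 3, 5, 7 and 8 and lay between 0.161 and 0.998 in the controls. The same ratio of GAPDH was 1.06, 0.63, 1.26 and 0.95 in case animals 3, 5, 7 and 8, against 0.64 to 0.84 in the controls. Case animals 3, 7 and 8 lay above every control in the GAPDH ratio, while case animal 5 lay just below the lowest control. These case animals, and not case animal 5, also lay above every control at Cpt1a (1386946_at), Pex11a (1379361_at), Decr1, Acadl, Acadvl, Ech1 and Etfb. They did so too in the carnitine shuttle and peroxisomal scores described below. At Hadh, case animals 5, 7 and 8 lay above every control, and at Crat case animals 3, 5 and 8. These members were picked out after their values had been seen, and the share of all probe sets with the same pattern was not counted. The part of RNA length in the differences was not tested. With the GAPDH ratio as a covariate, a setting added after the data had been seen, the median over all members was 0.09. The mitochondrial median was then 0.12, the carnitine shuttle median 0.14 and the peroxisomal median 0.0084. In that fit 2 member probe sets were higher at a limma unadjusted p under 0.05, Cpt2 stayed at 0.48 and Acat1 rose from 0.25 to 0.40. Since case animals 3, 7 and 8 lay above every control in this ratio, the fit separates ratio and group poorly. Case animal 5 stood apart in a pair of brown fat genes described further on, and member differences that moved by over 1.5 times without it are given both ways. With 1 array per animal, the number of animals limits the precision, and the standard error of the members' log2 differences lay between 0.10 and 0.26.

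The carnitine shuttle carries long-chain acyl groups across the inner mitochondrial membrane, and 2 of its genes had unadjusted p values under 0.05. Cpt1a encodes carnitine palmitoyltransferase 1A, which forms acylcarnitine at the outer membrane and sets the pace of the pathway. At probe set 1386946_at its signal was 690.6, 366.7, 706.4 and 763.2 in case animals 3, 5, 7 and 8, against 358.9, 436.2, 484.6, 340.9 and 471.8 in control animals 4, 9, 10, 11 and 12. Case animals 3, 7 and 8 lay above every control, while case animal 5 lay within the control range. The log2 difference was 0.55 ± 0.20 (SE, 4 case and 5 control animals), a 1.46-fold higher level, with a limma unadjusted p of 0.018 and an adjusted p of 0.644. Within fluidics runs 1 and 2 the Cpt1a difference was 0.64 and 0.87, with the run as a block in the fit it was 0.76, with the actin ratio as a covariate it was 0.42, and with the GAPDH ratio as a covariate it was 0.14.

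Case animal 5 decided the Cpt1a call. Without this animal the Cpt1a difference at 1386946_at was 0.79 ± 0.14 (SE), with a limma adjusted p of 0.0338. In that fit of 3 case and 5 control animals, 2 of 33 member probe sets (6.06%) were called higher, against 0.147% of all probe sets. Lower calls numbered 0 among the members, and over the array 53 probe sets were called in either direction. The 2 called were Cpt1a (1386946_at) and Pex11a (1379361_at), where case animal 5 had the lowest case signal. Leaving it out raised their case means and lowered their standard errors, so this share carries no test. Of the members with no call, several moved by over 1.5 times without case animal 5. Acox2 then differed by -0.16, Slc27a2 by 0.34, Hsd17b4 by 0.12 and Decr2 by -0.10. Acat1 differed by 0.15, Hadh by 0.07, Etfdh by 0.19, Etfa by 0.12 and Ucp2 by -0.17. Without case animals 7 and 8, the animals with the highest actin ratios, the Cpt1a difference was 0.28.

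A second Cpt1a probe set went the opposite way. At 1367836_at the signal was 180.5, 278.0, 149.4 and 224.1 in case animals 3, 5, 7 and 8, against 265.6, 198.1, 313.8, 207.3 and 300.4 in the controls in the order above. Case animals 3 and 7 lay below every control, and the other case animals lay within the control range. The log2 difference was -0.31 ± 0.19 (SE, limma adjusted p = 0.809), and without case animal 5 it was -0.46 ± 0.19 (SE, limma adjusted p = 0.365). Leaving out that animal thus enlarged the differences at both probe sets, in opposite directions. The array therefore gives no single direction for Cpt1a. Which transcripts each probe set detects was not examined.

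**Figure D2:**
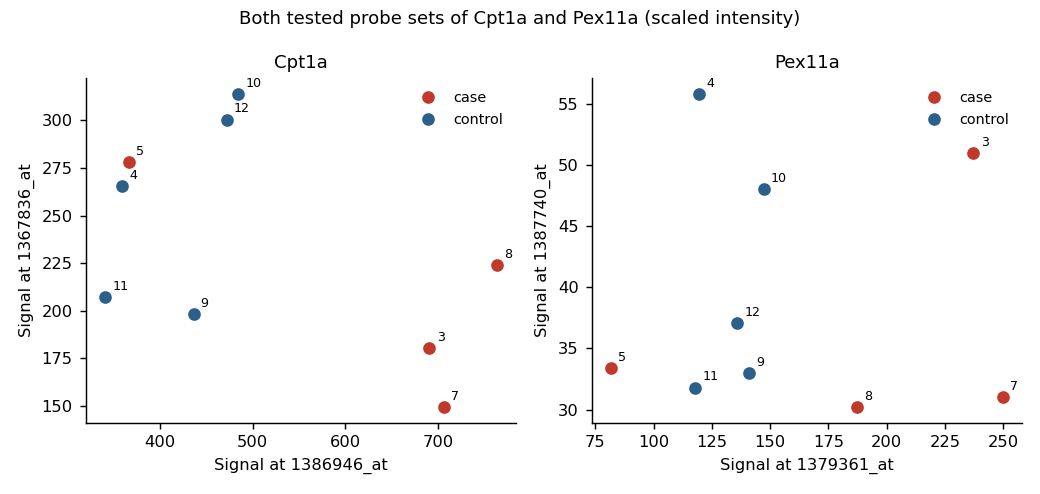
Each point is an animal, labelled with its number and coloured by group, with the signal at one probe set of Cpt1a (left) or Pex11a (right) on the horizontal axis and the signal at the gene's other probe set on the vertical axis, both as scaled intensity. Case animals 3, 7 and 8 lie to the right of every control in both panels, and case animal 5 does not.

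Cpt2 encodes the inner membrane palmitoyltransferase that rebuilds acyl-CoA in the matrix. Its signal was 133.3, 92.9, 101.7 and 90.6 in case animals 3, 5, 7 and 8, against 65.7, 94.8, 56.7, 94.0 and 59.9 in control animals 4, 9, 10, 11 and 12. All 4 case animals lay above the control median, but control animals 9 and 11 reached into the case range. The Cpt2 log2 difference was 0.48 ± 0.19 (SE), a 1.40-fold higher level, with a limma unadjusted p of 0.022 and an adjusted p of 0.644. It was 0.68 within run 1 and 0.17 within run 2, and 0.48 with the GAPDH ratio as a covariate.

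The other 3 shuttle genes had differences close to their standard errors. Crat, which exchanges short acyl groups between carnitine and coenzyme A in mitochondria and peroxisomes, differed by 0.16 ± 0.12 (SE), with 3 of 4 case animals above every control. Slc25a20, the translocase that swaps acylcarnitine for carnitine across the inner membrane, differed by 0.12 ± 0.15, and its case range of 106.1 to 124.9 lay inside the control range of 78.9 to 127.9. Cpt1b, the muscle form of the outer enzyme, differed by -0.12 ± 0.16, with signals of 47.7 to 66.3 in case and 55.2 to 78.6 in control. The mean differences of the shuttle genes thus lay on both sides of 0, with the lower one, that of Cpt1b, within its standard error of 0.

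Mitochondrial β-oxidation shortens acyl-CoA in a cycle of dehydrogenation, hydration, a second dehydrogenation and thiolysis, with extra enzymes for unsaturated chains. Eci1 encodes an enoyl-CoA isomerase that moves double bonds of unsaturated fatty acids into the position the cycle can use. Its signal at 1367659_s_at was 618.4, 448.6, 442.1 and 454.5 in case animals 3, 5, 7 and 8, against 330.0, 318.5, 328.7, 287.2 and 428.8 in control animals 4, 9, 10, 11 and 12. Every case animal lay above every control, with control animal 12 closest to the case range. The Eci1 log2 difference was 0.53 ± 0.14 (SE), a 1.44-fold higher level, with a limma unadjusted p of 0.0029, which ranked 43 among the 9519 probe sets, and an adjusted p of 0.627. It was 0.58 within run 1, 0.54 within run 2 and 0.57 with the actin ratio as a covariate. With the GAPDH ratio as a covariate it was 0.43, and without case animal 3 it was 0.41. The suffix of this probe set marks probes shared by several transcripts, and the other Eci1 probe set, 1370961_at, lay below the filter at 3.7 to 6.3 in case and 4.2 to 9.2 in control.

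Electron transfer flavoprotein collects electrons from the acyl-CoA dehydrogenases and passes them to its membrane dehydrogenase. The β subunit gene, Etfb, had signals of 618.3, 546.2, 623.4 and 740.6 in case animals 3, 5, 7 and 8, against 452.3, 473.9, 484.0, 500.9 and 556.5 in control animals 4, 9, 10, 11 and 12. Only case animal 5 and control animal 12 overlapped. The Etfb log2 difference was 0.35 ± 0.12 (SE), a 1.27-fold higher level, with a limma unadjusted p of 0.011 and an adjusted p of 0.644. It was 0.50 with the run as a block and 0.27 with the actin ratio as a covariate. With the GAPDH ratio as a covariate it was 0.26, and without case animals 7 and 8 it was 0.24. The α subunit gene, Etfa, differed by 0.08 ± 0.16, with case signals of 452.8 to 566.2 inside the control range of 327.5 to 579.8. Etfdh, the membrane dehydrogenase, differed by 0.11 ± 0.13. The limma adjusted p was 0.966 for Etfa and 0.929 for Etfdh.

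The acyl-CoA dehydrogenases, which catalyse the first step for chains of different length, had small positive differences. Acadm, for medium chains, had signals of 2394.5, 1654.4, 1907.6 and 1606.7 in case animals 3, 5, 7 and 8, against 1478.6, 1661.0, 1847.2, 1866.8 and 1469.4 in control animals 4, 9, 10, 11 and 12. The groups overlapped widely, with case animal 3 the highest of all. Its log2 difference was 0.17 ± 0.14 (SE, limma adjusted p = 0.88), and 0.05 without case animal 3. Within run 2 it was -0.15. Acadl, for long chains, differed by 0.22 ± 0.14 and Acadvl, for very long chains, by 0.18 ± 0.11, each with 3 of 4 case animals above every control. Acads, for short chains, differed by 0.07 ± 0.17, and all 4 case animals lay within the control range of 189.2 to 314.1. It was -0.02 with the run as a block and -0.03 without case animal 3.

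The trifunctional protein carries out the remaining steps for long chains. Its α subunit gene, Hadha, differed by 0.15 ± 0.15 (SE) and its β subunit gene, Hadhb, by 0.18 ± 0.12. Case animal 7 had the lowest Hadha signal of all animals, 207.1, and the highest Hadhb signal, 862.5, so the subunit genes went opposite ways in that animal. They start next to each other on opposite strands of chromosome 6, with 301 bases between their annotated starts, so their promoter windows share 200 bases. These windows, 250 bases before to 50 bases after each gene's start, come from RefSeq's annotation of the GRCr8 assembly, which has one for 28 of the 33 members. The window of Hadha, chr6:31907551-31907850 on the plus strand, is shown because the pair shares it, with the shared bases in capitals.
Hadha: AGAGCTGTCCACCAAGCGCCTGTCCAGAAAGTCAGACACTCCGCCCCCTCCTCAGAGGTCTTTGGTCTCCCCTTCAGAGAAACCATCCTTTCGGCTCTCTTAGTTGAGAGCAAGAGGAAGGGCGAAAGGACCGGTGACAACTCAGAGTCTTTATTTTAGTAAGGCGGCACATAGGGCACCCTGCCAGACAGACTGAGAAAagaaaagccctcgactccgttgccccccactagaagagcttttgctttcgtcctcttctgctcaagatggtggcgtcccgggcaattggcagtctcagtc

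The enzymes of the later steps and of unsaturated chains were also higher on average. Acaa2, the thiolase that splits off acetyl-CoA, had signals of 515.3 to 678.3 in case and 356.3 to 593.2 in control, a log2 difference of 0.34 ± 0.16 (SE, limma adjusted p = 0.754). Decr1, a reductase for unsaturated chains, differed by 0.27 ± 0.13, with 3 case animals above every control and case animal 5 within the control range. Acat1, which splits acetoacetyl-CoA, differed by 0.25 ± 0.15 and Hadh, the dehydrogenase for shorter chains, by 0.12 ± 0.11. A second Hadh probe set, 1389922_at, lay below the filter, with 4.2 to 7.3 in case and 4.9 to 10.2 in control. None of these genes separated the groups.

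Taken by animal, the mitochondrial class was the only one of the 4 in which every case animal lay above every control. The class score, the mean over the 14 genes of each log2 value minus its mean over the 9 arrays, was 0.17, 0.04, 0.09 and 0.18 in case animals 3, 5, 7 and 8, against -0.16, -0.10, -0.10, -0.10 and -0.02 in control animals 4, 9, 10, 11 and 12. The scores of case animal 5 and control animal 12 came closest, 0.0385 and -0.0198. The means differed by 0.22, and by 0.26 in run 1 alone and 0.28 in run 2 alone, where a separation of all animals fixes the sign.

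In the carnitine shuttle score, case animals 3, 7 and 8 had 0.20, 0.18 and 0.23 and case animal 5 had -0.08, against -0.28 to -0.03 in the controls. Case animal 5 lay within the control range, and the means differed by 0.24. Cpt1a entered this score by 1386946_at alone, where the same case animals lay above every control. The peroxisomal score was 0.32, -0.18, 0.16 and 0.03 in case animals 3, 5, 7 and 8, against -0.12 to -0.02 in the controls. Here case animal 5 lay below every control and the other case animals above every control, with a difference of 0.15 between the means. The SD of the peroxisomal score was 0.21 among the 4 case animals and 0.04 among the 5 controls.

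Set against each other within an animal, the classes did not separate the groups. The mitochondrial score minus the peroxisomal score was -0.15, 0.22, -0.06 and 0.15 in case animals 3, 5, 7 and 8, against -0.08 to 0.03 in the controls, and the means differed by 0.07. The carnitine shuttle score minus the peroxisomal score was -0.12, 0.11, 0.02 and 0.20 in the same case animals, against -0.16 to 0.04 in the controls, and the means differed by 0.09. In the first contrast the case animals lay above, below and within the control range, and in the second above and within it, so the case animals shared no order of the 3 classes.

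**Figure D3:**
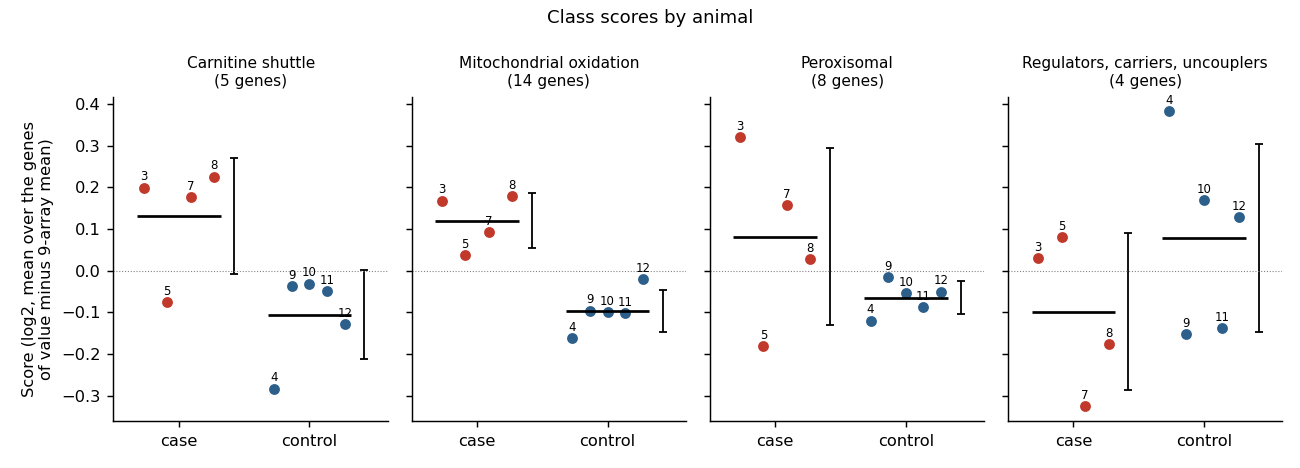
Each panel shows a class, each point an animal labelled with its number, with case to the left of control, and the vertical axis gives the class score on the log2 scale. Lines are group means and bars are SD (4 case and 5 control animals), and the groups are separate only in the mitochondrial panel.

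Peroxisomal oxidation handles chains that mitochondria do not take up directly. Phyh encodes phytanoyl-CoA hydroxylase, which starts the α-oxidation of branched phytanic acid. Its signal was 1617.8, 908.0, 1197.2 and 929.1 in case animals 3, 5, 7 and 8, against 871.0, 782.5, 829.6, 882.5 and 700.6 in control animals 4, 9, 10, 11 and 12. Every case animal lay above every control, although case animals 5 and 8 exceeded the highest control by little. The Phyh log2 difference was 0.48 ± 0.16 (SE), a 1.39-fold higher level, with a limma unadjusted p of 0.012 and an adjusted p of 0.644. It was 0.47 within run 1, 0.16 within run 2 and 0.31 with the run as a block, and 0.31 without case animal 3. With the GAPDH ratio as a covariate it was 0.33.

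Pex11a encodes a membrane protein of peroxisome division. At 1379361_at its signal was 237.3, 81.8, 249.9 and 187.4 in case animals 3, 5, 7 and 8, against 119.7, 141.1, 147.2, 118.0 and 135.8 in control animals 4, 9, 10, 11 and 12. Case animals 3, 7 and 8 lay above every control and case animal 5 below every control. The Pex11a log2 difference was 0.39 ± 0.26 (SE, limma adjusted p = 0.833), and without case animal 5 it was 0.74 ± 0.14 with a limma adjusted p of 0.0461. Without case animals 7 and 8 it was 0.08, with the actin ratio as a covariate 0.23 and with the GAPDH ratio as a covariate -0.20. The other Pex11a probe set, 1387740_at, differed by -0.16 ± 0.21, with signals of 30.2 to 51.0 in case and 31.8 to 55.8 in control.

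The remaining peroxisomal members fell on both sides of 0. Acox2, the acyl-CoA oxidase for branched chains and bile acid precursors, had signals of 233.4, 131.7, 157.1 and 169.5 in case animals 3, 5, 7 and 8, against 167.1 to 231.1 in control. Case animal 3 lay above every control and case animals 5 and 7 below, and the log2 difference was -0.28 ± 0.17 (SE, limma adjusted p = 0.804). Ech1, an isomerase for dienes found in peroxisomes and mitochondria, differed by 0.26 ± 0.12 (limma adjusted p = 0.756), with 3 case animals above every control. Slc27a2, an acyl-CoA synthetase for very long chains that also takes up fatty acids, differed by 0.21 ± 0.15, by 0.05 without case animal 3 and by -0.0063 with the GAPDH ratio as a covariate. Hsd17b4, Ehhadh and Decr2, which carry out later steps and reduce double bonds, differed by 0.07 ± 0.10, 0.04 ± 0.14 and -0.0024 ± 0.15.

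**Figure D4:**
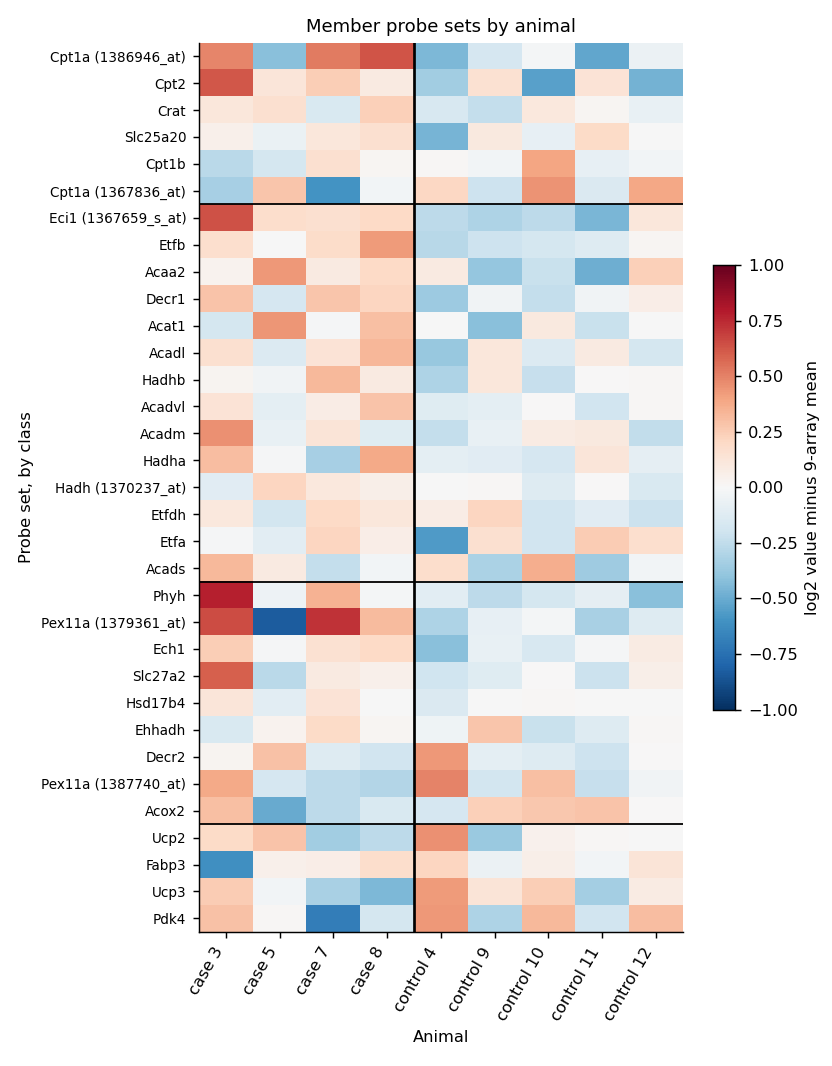
Rows are the 33 member probe sets by class, columns are the animals with the case group on the left of the line, and colour gives the log2 value minus the mean over the 9 arrays. Case animal 3 is high at Phyh, Cpt2 and Eci1, case animal 5 is low at Pex11a (1379361_at), and the lower block of regulators, carriers and uncouplers is mostly blue in case animals 7 and 8.

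Among the regulators, carriers and uncouplers, Ppara itself could not be compared. Its single probe set, 1387278_at, had signals of 3.9, 4.7, 3.7 and 2.0 in case animals 3, 5, 7 and 8, against 5.5, 3.5, 4.7, 2.8 and 3.9 in control animals 4, 9, 10, 11 and 12. All of these lay far below the filter, near a signal of 33.3, and the groups were not compared there.

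Pdk4 encodes the pyruvate dehydrogenase kinase that holds back glucose oxidation when fat is burned. Its signal was 60.1, 48.8, 27.9 and 42.2 in case animals 3, 5, 7 and 8, against 66.8, 38.1, 61.8, 41.6 and 60.9 in control animals 4, 9, 10, 11 and 12. None of the 4 case animals lay above the control median, and case animal 7 lay below every control. The Pdk4 log2 difference was -0.25 ± 0.23 (SE, limma adjusted p = 0.893), and without case animals 7 and 8 it was 0.04. Ucp3 and Ucp2, mitochondrial carriers of the uncoupling protein family, differed by -0.25 ± 0.21 and -0.06 ± 0.18, and without case animals 7 and 8 these values were 0.00 and 0.21. Fabp3, a cytosolic fatty acid binding protein, differed by -0.14 ± 0.15, where case animal 3 had 381.5 and the other case animals 609.4 to 663.9, against 564.4 to 680.7 in control. Without case animal 3 the Fabp3 difference was 0.035, and within run 2 it was 0.18.

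**Figure D5:**
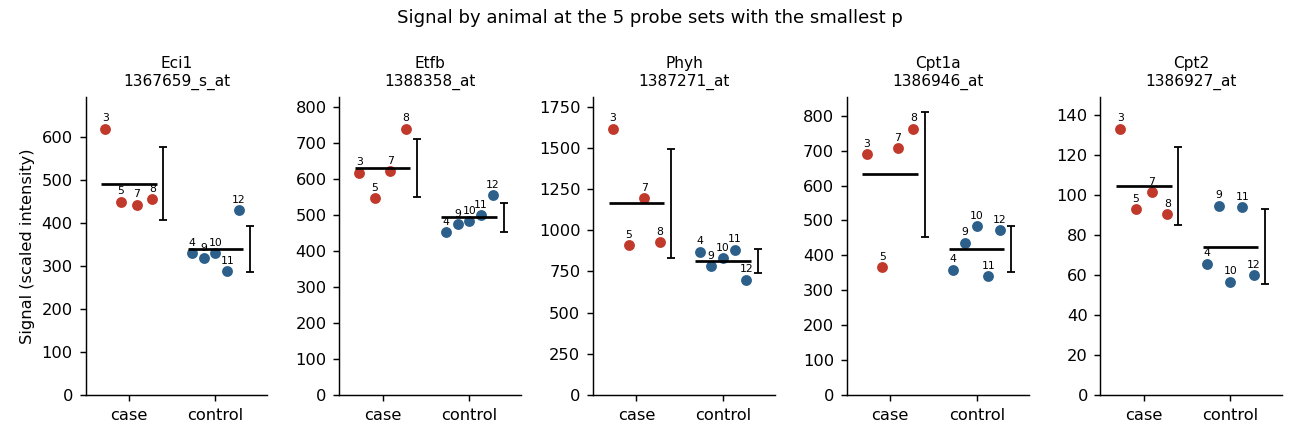
Each panel shows one of the 5 member probe sets with an unadjusted p under 0.05, with the signal as scaled intensity on the vertical axis from 0, case to the left of control, and each animal labelled with its number. Lines are group means and bars are SD (4 case and 5 control animals), and the groups do not overlap for Eci1 and Phyh.

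PPARα binds DNA with the retinoid X receptor at a direct repeat of 6 bases with a spacer of 1, AGGTCANAGGTCA. Of the 28 member promoter windows, 6 (21.4%) held this motif on either strand with at most 2 of its 12 fixed letters different, against 1263 of 33469 windows of all genes (3.77%). With at most 1 difference only Acadvl held it (3.57% of members, against 0.439% of all windows), and with no difference 0 members did (0.0538% of all windows). The matches are shown as the sequences nearest to the motif, in the motif's direction, with capitals for the letters that match it and lower case for the free spacer and the letters that differ.
Acadvl: AGGTCAgtGGTCA
Slc27a2: AtcTCAaAGGTCA
Ucp3: AGGTttcAGGTCA
Crat: AGGaCAccGGTCA
Slc25a20: AGGTgAaAGGTCg
Etfa: AGGgCAaAGGTaA

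The Acadvl match began 17 bases before the annotated start, in the window chr10:55236656-55236955 on the minus strand, written below in the direction of the gene with the match in capitals.
Acadvl: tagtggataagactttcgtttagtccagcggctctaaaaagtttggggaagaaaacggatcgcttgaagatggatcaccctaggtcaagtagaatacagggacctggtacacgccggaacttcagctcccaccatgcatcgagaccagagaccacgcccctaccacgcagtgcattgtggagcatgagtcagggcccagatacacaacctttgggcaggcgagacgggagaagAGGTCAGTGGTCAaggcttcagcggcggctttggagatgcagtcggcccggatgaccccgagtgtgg

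The 6 members with a match had log2 differences of 0.18 (Acadvl), 0.21 (Slc27a2), -0.25 (Ucp3), 0.16 (Crat), 0.12 (Slc25a20) and 0.08 (Etfa). The 5 members with an unadjusted p under 0.05 were not among them. The element of the estrogen-related receptors, TNAAGGTCA, which overlaps the repeat in its last 6 letters, was found with at most 1 of 8 fixed letters different in 5 member windows (17.9%), against 20.5% of all windows. A match describes letters in these windows and gives no binding.

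Genes that stand beside the members in the same pathways were read from lists of their own. Of 14 acyl-CoA synthetases and thioesterases above the filter, which activate fatty acids or release them from coenzyme A, 9 were higher and 5 lower in case, with a median log2 difference of 0.03. Acot7, a thioesterase, had signals of 110.5, 89.0, 128.1 and 104.0 in case animals 3, 5, 7 and 8, against 69.9 to 90.0 in control, a difference of 0.41 ± 0.14 (SE, limma adjusted p = 0.644). Case animal 5 lay within the control range. Acsl5 and Acsm2, both acyl-CoA synthetases, differed by -0.18 ± 0.12 and 0.19 ± 0.14.

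Fatty acid uptake genes, PPAR partners and known PPAR targets numbered 18 above the filter, with 12 higher, 6 lower and a median of 0.09. Plin2, which coats lipid droplets, had signals of 300.6, 253.0, 499.8 and 298.5 in case animals 3, 5, 7 and 8, against 215.1 to 291.8 in control. Case animals 3, 7 and 8 lay above every control, and the difference was 0.43 ± 0.18 (SE, limma adjusted p = 0.692). Vnn1, a pantetheinase, differed by 0.43 ± 0.25 and Cyp4a8, a fatty acid ω-hydroxylase, by 0.23 ± 0.14, with 0.59 ± 0.17 at another Cyp4a8 probe set.

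A further 13 genes of mitochondrial oxidation and ketone metabolism gave 10 higher and 3 lower, with a median of 0.11. Among them Acadsb, a dehydrogenase for short branched chains, had signals of 37.7, 59.0, 30.4 and 32.3 in case animals 3, 5, 7 and 8, against 48.3 to 69.2 in control, a difference of -0.53 ± 0.20 (SE, limma adjusted p = 0.644). Case animals 3, 7 and 8 lay below every control. Hsd17b10, a dehydrogenase of branched-chain breakdown, differed by 0.25 ± 0.12 and Bdh1, which interconverts ketone bodies, by 0.23 ± 0.20, with -0.79 ± 0.44 at another Bdh1 probe set. In the score of these 13 genes, formed as for the classes, 0 case animals lay above every control, and the means differed by 0.05.

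Peroxisomal genes outside the set did not lean one way. Of 22 further peroxisomal enzymes and carriers, 11 were higher and 11 lower, with a median of 0.00, and of 7 peroxins, which build the organelle and import its proteins, 2 were higher and 5 lower, with a median of -0.02. Lonp2, the peroxisomal Lon protease, had 346.8 to 458.6 in case and 274.1 to 384.3 in control, a difference of 0.35 ± 0.13 (SE, limma adjusted p = 0.644). Pxmp2 and Amacr, a membrane channel and a racemase of branched chains, differed by 0.24 ± 0.12 and -0.23 ± 0.17. Pex19, Pex3 and Pex14 differed by -0.26 ± 0.13, 0.32 ± 0.22 and -0.19 ± 0.15, and none of these 5 lists held a gene past the threshold.

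Since proximal tubule cells depend strongly on fatty acid oxidation, their markers were read beside the members. All 17 proximal tubule markers were measured, 16 of them above the filter, with 8 higher and 8 lower in case and a median log2 difference of 0.02. Their summed signal was 20000.7 to 26809.1 in case and 20996.3 to 25699.2 in control, so the ranges overlapped. Gatm, the creatine pathway enzyme, had the smallest unadjusted p of the list, with a difference of -0.34 ± 0.14 (SE, limma adjusted p = 0.678). Markers of the thick limb, distal tubule and collecting duct gave 3 higher and 7 lower of 10, with summed signals of 8732.1 to 11480.6 in case and 8616.9 to 10940.0 in control. Glomerulus and vessel markers gave 4 higher and 4 lower of 8, with 884.6 to 1318.2 in case and 938.6 to 1173.0 in control. In whole kidney RNA, fewer cells of a type and less RNA per cell cannot be told apart.

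Other tissues were checked because fat, liver and muscle express many of the members. In the adipose list 5 of 6 measured markers lay below the filter, with summed signals of 126.3, 365.2, 79.6 and 102.2 in case animals 3, 5, 7 and 8, against 94.0 to 165.2 in control. The high sum of case animal 5 came from Ucp1 and Cidea, genes of brown fat, with signals of 154.7 and 122.1, where the other 8 animals had 9.1 to 19.8 and 26.3 to 41.6. At Plin1, Lep and Lipe case animal 5 had 17.2, 1.6 and 32.4, within the range of the other animals. Its Cfd signal, 37.2, was the highest, with 36.5 in control animal 12. Fabp4, of the fatty acid uptake list and below the filter, was also highest in case animal 5. Its signal was 10.6, 105.3, 10.9 and 5.6 in case animals 3, 5, 7 and 8, against 3.4 to 69.7 in control. In the liver list 6 of 8 measured markers lay below the filter, and the summed signals were 1331.9, 427.1, 847.1 and 975.4 in case animals 3, 5, 7 and 8, against 626.2 to 895.5 in control. Case animals 3 and 8 lay above every control and case animal 5 below, most of it from Cyp2c11, a cytochrome P450, which differed by 0.21 ± 0.33 (SE). Alb, which encodes albumin, had 15.4 to 28.0 in case and 8.8 to 39.9 in control. In the striated muscle list 9 of 10 measured markers lay below the filter, and in the adrenal list 5 of 6. Blood and leukocyte markers summed to 2970.2 to 4238.1 in case and 3338.0 to 4967.3 in control, with most of the signal from Hbb, Cd74 and Lyz2. Above the filter, 1 of 5 was higher and 4 were lower in case, with a median log2 difference of -0.19. S100a9, a neutrophil gene below the filter and named after its values were seen, had 47.9, 22.6, 43.7 and 10.3 in case animals 3, 5, 7 and 8, against 3.2 to 14.5 in control, so that case animals 3, 5 and 7 lay above every control. S100a8 of the same list, also below the filter, had 12.9, 0.5, 14.6 and 2.6, against 1.0 to 4.9 in control. There case animals 3 and 7 lay above every control and case animal 5 below. The part of these tissues in the members' differences was not tested, and without case animal 5 the mitochondrial median was 0.23 and the peroxisomal median 0.21.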

How the data were processed

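The deposited value table gives linear intensities, 1 for every probe set on every array, that the authors had already scaled between arrays, as the values show (equal means after trimming 2% at each end). The software that summarised the probes is not given in the sources used here. Fluidics runs were inferred from the hybridization times in the deposited experiment records, where a gap of more than 10 minutes began a new run. Of 15923 probe sets, 57 controls were left out, and symbols came from the platform annotation, with 12783 probe sets of 1 symbol, 312 of several and 2771 of none, of which 12748 with 1 symbol were matched to RefSeq genes by Entrez ID. Values were log2(signal + 5.03), the pseudocount being 10% of the median signal of 50.3, so that differences of dim genes are understated. Probe sets above the 40th percentile of mean log2 were tested with limma 3.58.1 (R 4.3.3; lmFit, eBayes with trend, 2-sided, Benjamini-Hochberg over 9519). Array correlations lay between 0.93 and 0.97. Each array is a separate animal, and nothing pairs the groups.

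The members and lists were chosen with earlier results of these data known. All members are named, in detail those with an unadjusted p under 0.05 and Cpt1a, Cpt2, Ppara, Pdk4 and Acadm, and up to 3 genes of each further list by smallest p. Other Cyp4a8 and Bdh1 probe sets, and further genes given per animal, were added after their values were seen. Alternatives covered the pseudocount, filter, normalization, trend, array weights, run, actin and GAPDH ratios and leaving out animals. The steps were tested on simulated data. Python 3.11.15 served for tables, through pandas 2.3.3 and NumPy 2.4.6, and matplotlib 3.10.9 for figures.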

Additional observations from a re-analysis of the deposited data

Results flagged for a closer look

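In 80 tests for a single animal far from the rest of its group, over the member probe sets and class scores, 8 stood apart. Chance gives about 1 in 20 for independent tests. The scores are means over the same probe sets and the animals are shared, so these tests are not independent and the count shows no excess. At Cpt1a (1386946_at) case animal 5 had 366.7, where the other case animals had 690.6 to 763.2, and in the carnitine shuttle score it had -0.0759, where the others had 0.1776 to 0.2262. Its Decr1 signal was 481.2, where the others had 628.0 to 661.5. Case animal 3 had an Eci1 signal of 618.4, where the other case animals had 442.1 to 454.5, and a Fabp3 signal of 381.5, where the others had 609.4 to 663.9. Among the controls, animal 10 had a Cpt1b signal of 78.6 beside 55.2 to 59.2, animal 11 a Hadha signal of 285.1 beside 232.3 to 245.4, and animal 4 an Hsd17b4 signal of 575.4 beside 635.8 to 643.2.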

How the results depend on the processing

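With 4 case and 5 control animals, 1 array each, differences of the size seen here were not called, and leaving out 1 animal changed calls. Over all probe sets the count past the threshold was 0, and 1 with median centring, with no filter and with the pseudocount at 50% of the median, and it ranged from 0 to 53 when each animal was left out, with 53 without case animal 5 and 1 without case animal 3, 7 or 8. Among the members the count was 0 under every setting other than leaving out case animal 5, so its range over animals left out was 0 to 2. The number of member probe sets higher at an unadjusted p under 0.05 was 3 without case animals 7 and 8, 9 with median centring, and 10 without case animal 5. The median over all members was 0.26 with the run as a block and 0.25 with median centring, and 0.12 to 0.19 with each animal left out. The mitochondrial median was 0.28 and 0.27 under the same settings and 0.15 to 0.23 with each animal left out. The carnitine shuttle median was 0.30 without Crat, 0.30 with the run as a block and 0.32 when the filter was set at the 60th percentile, and 0.11 to 0.24 with each animal left out. The peroxisomal median was 0.08 to 0.21 with each animal left out, and 0.06 without Ech1 and Slc27a2, which also act in other compartments. With the GAPDH ratio as a covariate the median over all members was 0.0887, the mitochondrial median 0.115 and the peroxisomal median 0.0084. The carnitine shuttle median was 0.1443 in that fit, with 2 member probe sets higher at a limma unadjusted p under 0.05. Cpt1a (1386946_at) was then at 0.14 and Cpt2 at 0.48. Median centring moved the median of all genes to 0.08. Leaving out case animals 7 and 8 and the GAPDH covariate were chosen after seeing the data, and without these animals Pdk4 turned to 0.0387. Cpt1a at 1386946_at was past the threshold only without case animal 5, where it differed by 0.79. No paired analysis was possible because the animals of the groups share no numbers.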

Other observations

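Case animals 3 and 5 often lay at the ends of the range. Case animal 3 had the highest signal of all 9 animals at Phyh (1617.8), Slc27a2 (2575.9), Acadm (2394.5), Eci1 (618.4), Cpt2 (133.3) and Acox2 (233.4). It was also the highest at Ech1 (497.8) and Decr1 (661.5), and the lowest at Fabp3 (381.5) and Cpt1b (47.7). Case animal 5 had the lowest signal at Pex11a (81.8 at 1379361_at), Slc27a2 (1405.8) and Acox2 (131.7), and the highest at Acaa2 (678.3), Acat1 (821.8) and Hadh (892.1). These animals were picked out after their values had been seen.

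Control animal 4, the only control in fluidics run 1, had the lowest signal of all 9 animals at Etfa (327.5), Ech1 (313.5), Decr1 (419.8), Acadl (377.7) and Slc25a20 (78.9). The same held at Etfb (452.3), Hadhb (555.8) and Hsd17b4 (575.4). Its signal was the highest of all at Fabp3 (680.7), Pdk4 (66.8), Ucp2 (162.3), Ucp3 (52.9), Decr2 (415.9) and Pex11a (55.8 at 1387740_at). Without control animal 4, Etfa differed by -0.06 and Slc25a20 by 0.01 between case and control.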
